A study of Mus musculus with 12 samples.

Results

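The genes described are 40 genes of T cell receptor signalling, listed by name: the receptor complex, its kinases and adaptors, co-stimulatory receptors, and the NFAT and NF-κB factors. They were chosen by name and not by a measured value, with earlier results of these data known. Each gene was represented by the probe set with its symbol alone, and by the probe set of the highest mean where a gene had several. Of the 40, 38 were measured among 19938 genes in all; Lck and Nfkb1 could not be tied to a probe set by their symbols alone and are not analysed here. The study transferred CFSE-labelled spleen cells of C57Bl/6 mice into B6D2F1 hosts, in which donor T cells meet foreign host antigens and start a graft-versus-host response. The transfer is given as 4 × 1e7 T cells in every group. CFSE is a dye that is diluted at each division, and the donor CD4+ cells sorted on day 2 (48 hr) had gone through 2 or more divisions and came from spleen and lymph node. There were 3 groups of 4 arrays: hosts given vehicle on days 0 and 1, hosts given TCDD at 15 μg/kg on day 0, and hosts given 2 mg/kg of Cl-BBQ on the same days as vehicle. Every agent was given i.p., and CD4+ cells were enriched with magnetic beads before the sort. All mice were 10 to 12 weeks old, and no genetic change is named for donors or hosts. TCDD and Cl-BBQ are both ligands of AhR, the aryl hydrocarbon receptor, which regulates transcription once a small molecule binds it. Dose and schedule differed between the ligands, so they were not compared at a matched dose. All groups share the transfer, the division gate and the sort, so resting T cells are not part of the data. The labels call the arrays biological replicates and give 4 hosts, without saying whether an array holds the cells of a single mouse.

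As background, the T cell receptor has no enzyme of its own. Its CD3 and zeta chains are phosphorylated by the kinases LCK and FYN, ZAP70 docks on them and phosphorylates the scaffolds LAT and SLP-76, and phospholipase C-γ1 then releases calcium and diacylglycerol. Calcium activates calcineurin and with it the NFAT factors, while diacylglycerol feeds the RAS activator RASGRP1 and PKC-θ, which reaches NF-κB through BCL10 and MALT1. CD28 and ICOS add co-stimulation, and phosphatases, ubiquitin ligases and diacylglycerol kinases limit the signal. Much of this control acts on proteins, by phosphorylation or degradation, which an RNA measurement does not see.

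Values are log2 intensities. In the whole series, array medians lay between 7.11 and 7.24, and Cyp1b1, a known AhR target used as a check of treatment, lay at 6.25 to 6.57 in vehicle, 9.67 to 9.92 in TCDD and 5.93 to 8.24 in Cl-BBQ arrays; the lowest value was that of Cl-BBQ replicate 3, below all vehicle arrays. Markers of the labelled cell type were bright, at 12.92 ± 0.02 for Cd3e and 12.44 ± 0.06 for Cd4 (SD, n = 4 vehicle arrays). Among markers of other cells, Ms4a1 of B cells lay at 5.07 ± 0.20 and Lyz2 of myeloid cells at 5.89 ± 0.12, whereas Cd8b1 of CD8 T cells lay at 9.92 ± 0.16, Nkg7 of the NK cell list at 10.11 ± 0.53 and Cd68 of the myeloid list at 8.31 ± 0.12. Cd8a lay between 6.96 and 8.47, the highest value being that of vehicle replicate 2. Levels of different probe sets cannot be set against each other, so these values do not give the share of any cell type. In bulk samples such as these, fewer cells of a type and less RNA per cell cannot be told apart.

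Within the ligand groups, certain arrays stood apart in these genes. TCDD replicate 1 held the lowest of the 4 TCDD values in 31 of the 38 genes, and TCDD replicate 4 the highest in 28. Cl-BBQ replicate 1 likewise held the lowest Cl-BBQ value in 32 genes and Cl-BBQ replicate 4 the highest in 25. Over all 19938 genes, the arrays numbered 1 were lowest in 32.3% (TCDD) and 35.2% (Cl-BBQ), and in vehicle no array was lowest in more than 13 of the 38. The arrays numbered 4 were highest in 29.5% (TCDD) and 31.4% (Cl-BBQ) of all genes, and no vehicle array was highest in more than 14 of the 38. The median deviation of the 38 genes from their vehicle means was −0.09 in TCDD replicate 1, 0.07 in TCDD replicate 4, −0.12 in Cl-BBQ replicate 1 and 0.13 in Cl-BBQ replicate 4, whereas vehicle arrays lay between −0.03 and 0.03. The plot of the median deviation by array shows this spread within the ligand groups, beside which the median differences from vehicle, 0.00 with TCDD and 0.02 with Cl-BBQ, were small. Results below were therefore also computed without the arrays numbered 1 of both ligand groups, an alternative chosen after seeing the data.

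**Figure D1:**
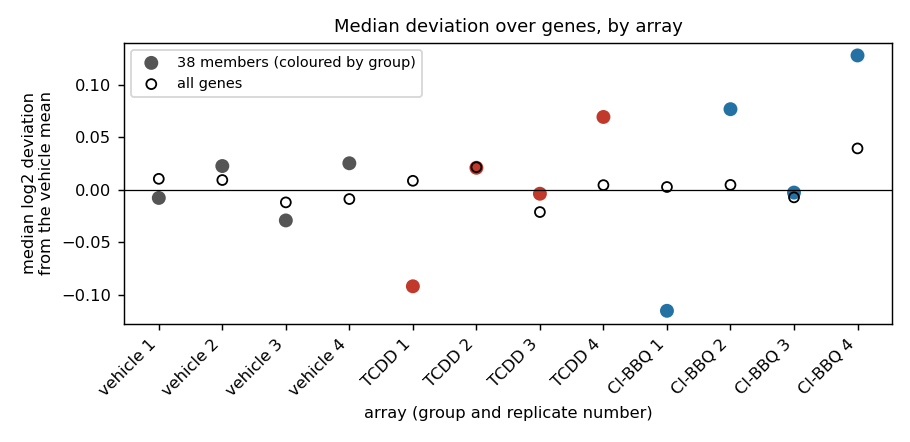
Median log2 deviation of the 38 T cell receptor signalling genes from their vehicle means in each of the 12 arrays (filled, coloured by group), beside the median over all 19938 genes (open). The arrays numbered 1 of TCDD and Cl-BBQ lie lowest, at −0.09 and −0.12, and Cl-BBQ replicate 4 lies highest, at 0.13.

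What TCDD changed in the divided donor cells was addressed against vehicle. With TCDD, 1 of the 38 genes passed the test and it was lower: Rel, which encodes the NF-κB subunit c-Rel, fell 1.17-fold. None was called higher, and 37 were not called. Called means an adjusted p under 0.05 from limma with Benjamini-Hochberg adjustment over all genes, by which 1.24% of all genes passed in this comparison (0.873% higher and 0.366% lower). All 38 genes lay above the median probe set level of 7.16, and of the genes above it 2.1% passed. At an unadjusted p under 0.05 there were 5 of the 38 genes (13.2%, against 8.69% of all genes, 4% lower, and 11.3% of those above 7.16), 3 higher (Icos, Txk and Cd28) and 2 lower (Rel and Dgkz). The same 5 were the genes whose TCDD and vehicle arrays did not overlap, against 5.8% of all genes and 7.92% of those above 7.16. The median log2 difference over the 38 genes was 0.00, as over all genes, and 19 lay above 0.

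For most of these genes, as for most of all genes, the arrays limited a change to a small size. The 95% interval of the log2 difference with TCDD lay within ±0.32 for 33 of 38 genes (86.8%, against 82.2% of all genes); this band was chosen after seeing the data. The 5 genes whose interval reached beyond it were Txk, Bcl10, Rel, Nfkbia and Dgkz. The median half-width of the intervals was 0.14, from genes as tight as Cd3g (SD within groups 0.03) to Nfkbia (0.26). The plot of differences by gene shows the intervals side by side for both ligands.

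**Figure D2:**
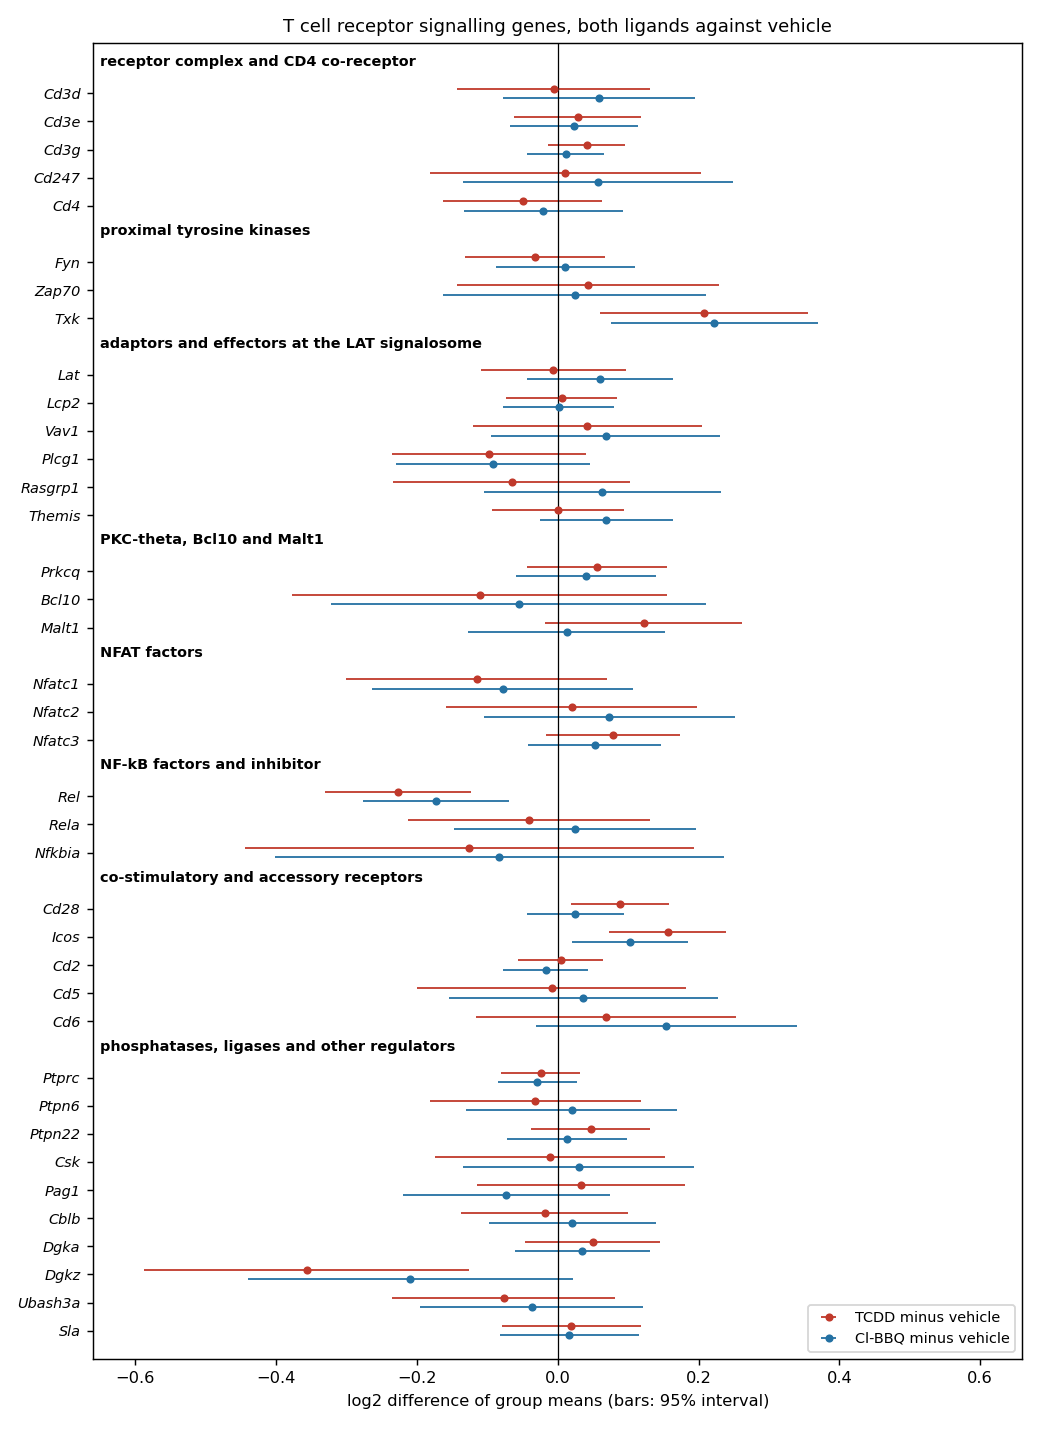
Log2 difference from vehicle for each of the 38 measured genes, grouped by role, with TCDD (red) and Cl-BBQ (blue); bars are 95% intervals from the fit of all 12 arrays. Rel and Dgkz lie left of 0 and Txk, Icos and Cd28 right of it with TCDD, and the other intervals with TCDD include 0. Both ligands were set against the same vehicle arrays.

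Among the receptor chains and the CD4 co-receptor, 0 of 5 genes were called with TCDD. The differences ran from −0.05 for Cd4, which binds MHC class II beside the receptor, to 0.04 for Cd3g, a CD3 chain. All 5 intervals lay within ±0.32. The widest was that of Cd247, the zeta chain that carries most of the signalling motifs, at −0.18 to 0.20. Cd3d and Cd3e, the other CD3 chains, differed from vehicle by −0.01 (interval −0.14 to 0.13) and 0.03 (interval −0.06 to 0.12).

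Of the tyrosine kinases, Fyn, a Src family kinase, differed by −0.03 (interval −0.13 to 0.07) and Zap70, the kinase that docks on the phosphorylated receptor, by 0.04 (interval −0.14 to 0.23). Txk, a Tec family kinase also known as RLK, was the exception in its values. In vehicle arrays Txk lay at 10.64, 10.63, 10.52 and 10.40, with TCDD at 10.71, 10.83, 10.71 and 10.77, and with Cl-BBQ at 10.71, 10.80, 10.65 and 10.92. Every array of both ligands thus lay above every vehicle array, although the lowest Cl-BBQ array cleared the highest vehicle array by only about 0.01. The log2 difference was 0.21 with TCDD (interval 0.06 to 0.36; limma adjusted p = 0.271) and 0.22 with Cl-BBQ (interval 0.07 to 0.37; limma adjusted p = 0.344), so Txk passed the test over all genes in neither.

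In the group of adaptors and effectors around LAT, 0 of 6 genes were called with TCDD, and all 6 intervals lay within ±0.32. Lat, the membrane scaffold, differed by −0.01 (interval −0.11 to 0.10), and Lcp2, which encodes SLP-76, by 0.01 (interval −0.07 to 0.08). Themis, an adaptor known from thymocyte selection, differed by −1.34e-05 on the log2 scale (interval −0.09 to 0.09). Plcg1, phospholipase C-γ1, was 0.10 lower (interval −0.24 to 0.04), and Vav1, an exchange factor, 0.04 higher (interval −0.12 to 0.20). Rasgrp1, the RAS activator, lay at 11.25, 11.48, 11.29 and 11.32 in vehicle, 11.19, 11.31, 11.26 and 11.31 with TCDD, and 11.19, 11.55, 11.28 and 11.57 with Cl-BBQ. Its groups overlapped in every pairing, and its Cl-BBQ arrays fell into a low and a high pair.

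On the branch from PKC-θ to NF-κB, Prkcq (PKC-θ itself) differed by 0.06 (interval −0.04 to 0.16) and Bcl10, the scaffold, by −0.11 (interval −0.38 to 0.16). Malt1, the paracaspase of the same complex, lay at 11.49, 11.60, 11.71 and 11.78 in vehicle, 11.63, 11.79, 11.80 and 11.83 with TCDD, and 11.53, 11.72, 11.73 and 11.65 with Cl-BBQ. These ranges overlapped, and the log2 difference with TCDD was 0.12 (interval −0.02 to 0.26; limma adjusted p = 0.669). The NFAT factors, which move to the nucleus when calcineurin removes their phosphates, were not called: Nfatc1 differed by −0.11 (interval −0.30 to 0.07), Nfatc2 by 0.02 (interval −0.16 to 0.20) and Nfatc3 by 0.08 (interval −0.02 to 0.17).

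Rel was the gene that fell. c-Rel is the NF-κB subunit known for its part in T cell activation and in transcription of Il2. Its levels were 11.02, 11.01, 11.06 and 11.08 in vehicle, 10.80, 10.78, 10.84 and 10.85 with TCDD, and 10.78, 10.90, 10.91 and 10.90 with Cl-BBQ. No array of either ligand reached the vehicle range, and the SD within groups was 0.03 for vehicle, 0.03 for TCDD and 0.06 for Cl-BBQ (n = 4 each). The log2 difference with TCDD was −0.23 (interval −0.33 to −0.12; limma adjusted p = 0.0282). With Cl-BBQ it was −0.17 (interval −0.28 to −0.07; limma adjusted p = 0.254), which did not pass. The fall with TCDD was small and its call was not firm: over all alternatives the difference stayed between −0.24 and −0.21 while the adjusted p ran from 0.00779 to 0.288, and with an array left out in turn the call was lost in 7 of 8 fits, all but that without vehicle replicate 2 (adjusted p = 0.0452 there, and up to 0.120). Without the arrays numbered 1 of both ligand groups the call stood, at −0.22 (adjusted p = 0.0284).

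The other NF-κB genes measured were Rela, the p65 subunit, at −0.04 with TCDD (interval −0.21 to 0.13) and Nfkbia, the inhibitor IκBα and itself an NF-κB target, at −0.13 (interval −0.44 to 0.19). Neither was called. Nfkbia had the widest spread of the 38 genes, from 9.23 to 9.80 in TCDD and from 9.08 to 9.95 in Cl-BBQ arrays. Beside the fall of Rel, the B cell marker genes Cd22 (log2 difference −0.95) and Bank1 (−0.48) were also called lower with TCDD, 2 of 9 measured B and plasma cell markers with 0 called higher, and so were Cd74 of 12 myeloid and dendritic markers and Eomes (−0.64) of 6 NK cell markers. Cd79b of the B cell list differed the other way, by 0.23 (interval 0.03 to 0.42), and was not called. So did Nkg7 of the NK cell list, by 0.53 (interval 0.10 to 0.97), and Siglech of the myeloid list, by 0.16 (interval 0.02 to 0.30), neither of them called. In all, 4 of the 9 B and plasma cell markers, 2 of the 6 NK cell markers and 6 of the 12 myeloid and dendritic markers lay above vehicle with TCDD. The median log2 difference over the B and plasma cell list with TCDD was −0.003. The mean level over that list, which includes Cd22 and Bank1, ran from 6.50 to 6.73 in vehicle, 6.41 to 6.52 in TCDD and 6.45 to 6.54 in Cl-BBQ arrays. The defining markers Ms4a1 and Cd79a were dim in every group and were not called. c-Rel is also expressed in B and dendritic cells, and the part of such cells in the fall of Rel was not tested.

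**Figure D3:**
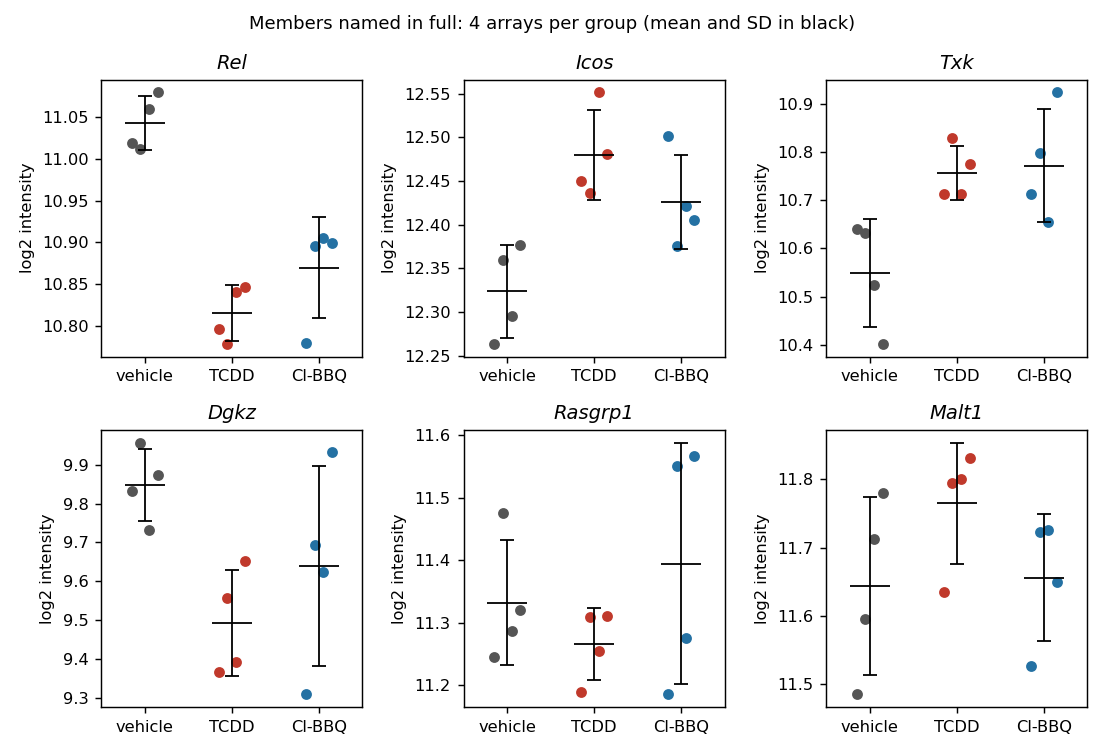
Log2 intensity on each of 4 arrays per group (points) with mean and SD (black) for Rel, Icos, Txk, Dgkz, Rasgrp1 and Malt1; each panel has its own axis range. In Rel the vehicle arrays (11.01 to 11.08) lie above all ligand arrays (10.78 to 10.91), whereas Rasgrp1 and Malt1 overlap between all groups.

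The sequence upstream of Rel is shown because Rel is the called gene, beside those upstream of Il2 and Sla2, genes of the same pathway that passed the test with TCDD and are described further on. Ppp3ca, a further pathway gene that passed, is not shown because no sequence upstream of it was available. The sequences are the 250 bases before the annotated start in RefSeq (GRCm38.p6), all on the minus strand and written 5′ to 3′: chr11:23770970-23771219 for Rel, chr3:37125955-37126204 for Il2 and chr2:156887222-156887471 for Sla2. Capitals mark matches on either strand to GCGTG, the core that AhR binds with its partner ARNT, to GGAAA, the core of NFAT sites, and to the κB consensus.
Rel: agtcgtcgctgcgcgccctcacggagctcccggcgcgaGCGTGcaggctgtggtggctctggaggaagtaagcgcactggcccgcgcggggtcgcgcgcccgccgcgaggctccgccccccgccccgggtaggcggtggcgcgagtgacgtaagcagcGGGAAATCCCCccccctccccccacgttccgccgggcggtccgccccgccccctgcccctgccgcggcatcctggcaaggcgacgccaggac
Il2: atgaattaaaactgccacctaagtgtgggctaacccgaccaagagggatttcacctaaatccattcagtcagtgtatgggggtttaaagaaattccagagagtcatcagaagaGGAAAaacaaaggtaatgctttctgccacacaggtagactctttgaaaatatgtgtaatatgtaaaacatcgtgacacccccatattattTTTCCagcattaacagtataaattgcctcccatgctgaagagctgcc
Sla2: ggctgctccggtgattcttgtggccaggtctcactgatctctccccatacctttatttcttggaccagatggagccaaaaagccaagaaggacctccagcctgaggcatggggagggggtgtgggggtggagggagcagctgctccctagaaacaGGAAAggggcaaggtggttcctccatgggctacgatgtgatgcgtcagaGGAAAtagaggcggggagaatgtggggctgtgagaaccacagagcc
The Rel window holds 1 match to the AhR core, whose first base is at position −212 from the start, and κB matches that overlap one another and the NFAT core, the first at −92. Neither the Il2 nor the Sla2 window holds the AhR core or the κB consensus, and each has 2 NFAT cores, in Il2 at −137 and −47. Over 32851 RefSeq windows of this length, 28.2% hold the AhR core, 55.6% the NFAT core and 7.25% the κB consensus. Among the 42 windows of 29 of the 38 genes these shares were 28.6%, 66.7% and 7.14%. A match is a description of letters and does not show binding in these cells.

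The co-stimulatory and accessory receptors had the narrowest intervals of the roles (median half-width 0.08) and held, in Icos, the gene nearest to the threshold. Icos, which is induced on activated T cells, lay at 12.26, 12.36, 12.30 and 12.38 in vehicle, 12.45, 12.44, 12.55 and 12.48 with TCDD, and 12.50, 12.38, 12.42 and 12.41 with Cl-BBQ. All TCDD arrays lay above all vehicle arrays, and the Cl-BBQ arrays met the vehicle range at its upper end. The log2 difference was 0.16 with TCDD (interval 0.07 to 0.24; limma adjusted p = 0.0748) and 0.10 with Cl-BBQ (interval 0.02 to 0.19; limma adjusted p = 0.521). Icos thus passed in neither comparison; with TCDD it did pass under 2 of the alternatives (array weights, and genes above 7.16 alone), and its adjusted p over them ran from 0.0327 to 0.331. Cd28, the main co-stimulatory receptor, was 1.06-fold higher with TCDD (interval of the log2 difference 0.02 to 0.16; limma adjusted p = 0.367), with arrays from 12.42 to 12.52 against 12.33 to 12.40 in vehicle. Cd2, an adhesion receptor, differed by 0.00 (interval −0.06 to 0.06), Cd5, an inhibitory receptor whose level follows signal strength, by −0.01 (interval −0.20 to 0.18), and Cd6, its relative, by 0.07 (interval −0.12 to 0.25).

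Of the 10 phosphatases, ligases and other regulators, 0 were called with TCDD. The largest difference among the 38 genes belonged to Dgkz, a diacylglycerol kinase that removes the second messenger of RASGRP1 and PKC-θ. Dgkz lay at 9.83, 9.96, 9.73 and 9.87 in vehicle, 9.37, 9.56, 9.39 and 9.65 with TCDD, and 9.31, 9.69, 9.62 and 9.93 with Cl-BBQ. The TCDD arrays lay below all vehicle arrays, whereas the Cl-BBQ arrays spanned both ranges. The log2 difference was −0.36 with TCDD (interval −0.59 to −0.13; limma adjusted p = 0.190, and 0.0320 to 0.589 over the alternatives). It passed in a fit of the TCDD and vehicle arrays alone and with the replicate number as a block. With the probe sets of each gene averaged, the difference was −0.15. A second and dimmer probe set of Dgkz, with a mean of 7.33 over all arrays against 9.66, differed by 0.06 (interval −0.09 to 0.21), so the probe sets of this gene disagreed. The related kinase Dgka differed by 0.05 (interval −0.05 to 0.15).

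The other regulators stayed close to vehicle with TCDD. Ptprc, which encodes the phosphatase CD45 that keeps Src kinases ready, had a difference of −0.02 (interval −0.08 to 0.03), and Csk, the kinase that holds them back, of −0.01 (interval −0.17 to 0.15). Pag1, the membrane anchor of CSK, was at 0.03 (interval −0.11 to 0.18). The phosphatase genes Ptpn6 (SHP-1) and Ptpn22 were at −0.03 (interval −0.18 to 0.12) and 0.05 (interval −0.04 to 0.13). Cblb, a ubiquitin ligase that raises the need for co-stimulation, was at −0.02 (interval −0.14 to 0.10), Ubash3a, a phosphatase-like inhibitor, at −0.08 (interval −0.24 to 0.08), and Sla, the Src-like adaptor, at 0.02 (interval −0.08 to 0.12). For all 8 of these the interval lay within ±0.32.

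The same question was put to Cl-BBQ. By limma, 0 of the 38 genes were called, where 0.196% of all genes passed (0.145% higher, 0.0502% lower, and 0.348% of those above 7.16). At an unadjusted p under 0.05 there were 3 (7.89%, against 7.91% of all genes, 3.8% lower, and 9.75% of those above 7.16), with Txk and Icos higher and Rel lower. Arrays did not overlap in 2 of the 38, Txk and Rel (5.26%, against 3.85% of all genes and 4.37% of those above 7.16). The median log2 difference was 0.02, against 0.01 over all genes, with 27 of the 38 above 0 and extremes of −0.21 for Dgkz and 0.22 for Txk. The median rested on single arrays: it was 0.07 without Cl-BBQ replicate 1 and −0.01 without Cl-BBQ replicate 4. Cd6 was next above, at 0.15 (interval −0.03 to 0.34; limma adjusted p = 0.702). The interval lay within ±0.32 in 33 of 38 genes (86.8%, against 82.1% of all genes). The count of called genes was also 0 without Cl-BBQ replicate 3, the array with the lowest Cyp1b1, and without the arrays numbered 1.

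The comparison of TCDD with Cl-BBQ asks whether the ligands, at their own doses and schedules, left these genes at different levels. By limma, 0 of 38 genes were called, where 0.015% of all genes passed (0.0275% of those above 7.16). An unadjusted p under 0.05 was reached by 0 of the 38, against 2.99% of all genes (1.37% lower) and 2.62% of those above 7.16. The largest differences were those of Dgkz, at −0.15 (interval −0.38 to 0.09), Rasgrp1, at −0.13 (interval −0.30 to 0.04), and Malt1, at 0.11 (interval −0.03 to 0.25). For Rel the difference was −0.05 (interval −0.16 to 0.05), for Icos 0.05 (interval −0.03 to 0.14) and for Txk −0.01 (interval −0.16 to 0.13). Arrays did not overlap for Cd3g and Cd28, both higher with TCDD (5.26%, against 2.04% of all genes and 2.15% of those above 7.16), by 0.03 (interval −0.02 to 0.08) and 0.06 (interval −0.01 to 0.13). Arrays of the same number in the ligand groups deviated together to unlike degrees (correlations of 0.606, 0.113, 0.157 and 0.365 for numbers 1 to 4). TCDD replicate 4 and Cl-BBQ replicate 2, of different number, did so too (0.419). The fit was repeated with the number as a block, although the number is not shown to mark pairs. With all 12 arrays, 0 of the 38 genes were called and 2 reached an unadjusted p under 0.05 (3.78% of all genes). These were Malt1, higher with TCDD in 4 of 4 same-numbered pairs (interval 0.01 to 0.20), and Rasgrp1, which was lower (interval −0.25 to −0.01). With the ligand arrays alone, an alternative chosen after seeing the data, 0 were called again (lowest limma adjusted p = 0.365) and 6 reached an unadjusted p under 0.05 (7.43% of all genes). Malt1 and Cd28 were the higher ones and Cd3d, Lat, Rasgrp1 and Dgkz the lower ones, with an interval of 0.04 to 0.18 for Malt1 and 0.00 to 0.12 for Cd28. Without the block, the interval of the difference between ligands lay within ±0.32 in 36 of the 38 genes (94.7%, against 88.1% of all genes). The others were Nfkbia and Dgkz.

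Further genes of the pathway were taken from a list of 112 names, of which 101 were measured. With TCDD, 2 rose (Ppp3ca and Sla2), 1 fell (Il2) and 98 were not called (1.24% of all genes were called, as given above); the median difference was 0.00. With Cl-BBQ, 1 rose, again Ppp3ca, and 100 were not called (0.196% of all genes were called). Between the ligands 0 were called by limma (0.015% of all genes). At an unadjusted p under 0.05 there were 20 of 101 with TCDD (19.8%, against 8.69% of all genes), 12 with Cl-BBQ (11.9%, against 7.91%) and 5 between the ligands (4.95%, against 2.99%). Of the genes above 7.16, 11.3%, 9.75% and 2.62% reached it in these comparisons. The plot of these genes by list shows where the called ones lie.

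**Figure D4:**
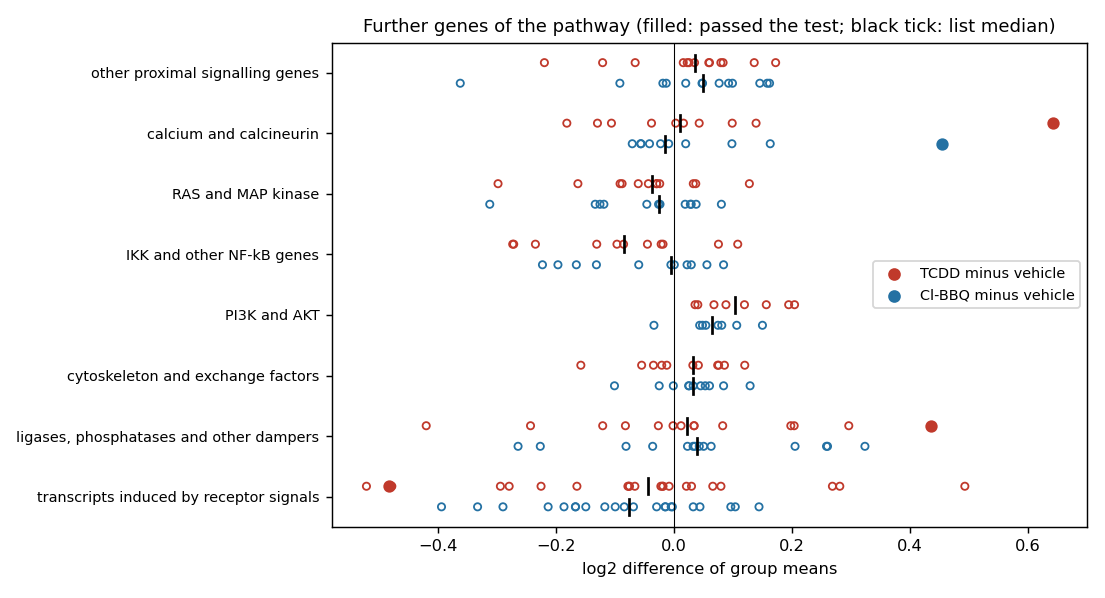
Log2 difference from vehicle for 101 further pathway genes in 8 lists, with TCDD (red) and Cl-BBQ (blue); filled points passed the test and black ticks are list medians. Ppp3ca (0.64 and 0.45) stands apart from the other calcium and calcineurin genes, and the PI3K and AKT genes all lie above 0 with TCDD without a call.

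Ppp3ca encodes the α form of the catalytic subunit of calcineurin, the phosphatase that activates NFAT. It lay at 10.34, 10.35, 10.11 and 10.06 in vehicle, 10.71, 10.78, 11.01 and 10.91 with TCDD, and 10.67, 10.52, 10.72 and 10.76 with Cl-BBQ. All arrays of both ligands were above all vehicle arrays. It rose 1.56-fold with TCDD (log2 difference 0.64, interval 0.46 to 0.82; limma adjusted p = 0.000599), and was called in all 8 fits with an array left out. With Cl-BBQ it rose 1.37-fold (interval of the log2 difference 0.27 to 0.63; limma adjusted p = 0.0398), a call that was lost in 6 of 8 such fits (adjusted p up to 0.148), all but those without Cl-BBQ replicate 1 or vehicle replicate 2; without Cl-BBQ replicate 3 the adjusted p was 0.0883. The other calcineurin genes differed little from vehicle with TCDD: Ppp3cb, the β catalytic form, by 0.02 (interval −0.06 to 0.09), Ppp3r1, the regulatory subunit, by 0.04 (interval −0.07 to 0.16), and Rcan1, an inhibitor of calcineurin and an NFAT target, by 0.00 (interval −0.17 to 0.17). Of the 10 calcium and calcineurin genes, 9 were not called.

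Sla2, a Src-like adaptor that dampens receptor signalling and a relative of Sla, lay at 9.91, 9.97, 9.65 and 9.75 in vehicle, 10.17, 10.32, 10.25 and 10.29 with TCDD, and 9.97, 10.28, 10.05 and 10.27 with Cl-BBQ. It rose 1.35-fold with TCDD (log2 difference 0.44, interval 0.25 to 0.62; limma adjusted p = 0.0158), where the groups did not overlap. With Cl-BBQ the difference was 0.32 (interval 0.14 to 0.51; limma adjusted p = 0.202), and the lowest Cl-BBQ array lay within the vehicle range. The call with TCDD was lost in 5 of 8 fits with an array left out (adjusted p up to 0.0689), those without TCDD replicates 2, 3 or 4 or vehicle replicates 3 or 4. Of the other 13 genes in its list of ligases, phosphatases and dampers, Lax1, an adaptor that limits signalling, came closest, at −0.42 (interval −0.63 to −0.21; limma adjusted p = 0.0510).

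Il2, whose transcription is switched on by NFAT, NF-κB and AP-1 factors, lay at 7.44, 7.44, 7.42 and 7.68 in vehicle, 6.80, 6.89, 7.15 and 7.22 with TCDD, and 6.79, 7.19, 7.24 and 7.18 with Cl-BBQ. All ligand arrays lay below all vehicle arrays. The probe set was dim, with means in both ligand groups under the median probe set level of 7.16, and the values carry no measure of background, so no fold is given. It fell by 0.48 on the log2 scale with TCDD (interval −0.72 to −0.25; limma adjusted p = 0.0415), and its call was lost in 7 of 8 fits with an array left out, all but that without TCDD replicate 4 (adjusted p up to 0.157). With Cl-BBQ the difference was −0.39 (interval −0.63 to −0.16; limma adjusted p = 0.245). It was the called gene of 22 transcripts that receptor signals induce, whose median was −0.04 with TCDD and −0.08 with Cl-BBQ. Others of that list differed in either direction without a call with TCDD: the cytokine gene Tnf by −0.52 (interval −0.82 to −0.23), Nr4a3, an orphan nuclear receptor, by −0.48 (interval −0.87 to −0.09), Myc by −0.28 (interval −0.44 to −0.11), Il2ra, the interleukin-2 receptor α chain, by 0.49 (interval 0.00 to 0.98) and Cd69 by 0.28 (interval 0.02 to 0.54).

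**Figure D5:**
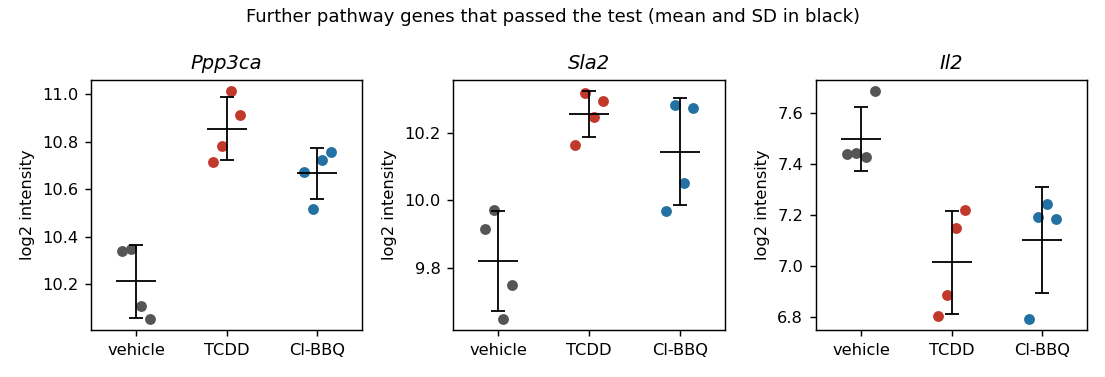
Log2 intensity of Ppp3ca, Sla2 and Il2 on each of 4 arrays per group (points) with mean and SD (black); each panel has its own axis range. The vehicle arrays lie lowest in Ppp3ca (10.06 to 10.35) and highest in Il2 (7.42 to 7.68), and in Sla2 they overlap with the lowest Cl-BBQ array at 9.97.

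Lists with no called gene with TCDD are given by their gene of largest difference. Tespa1, an adaptor, lay at −0.22 (interval −0.40 to −0.04) among 13 proximal signalling genes, Dusp6, a phosphatase of ERK, at −0.30 (interval −0.65 to 0.06) among 12 RAS and MAP kinase genes, and Vav2, an exchange factor, at −0.16 (interval −0.35 to 0.03) among 11 cytoskeletal genes. Of 11 further NF-κB pathway genes, 0 were called and 9 lay below vehicle, with a median of −0.09, and 2 were lower at an unadjusted p under 0.05. Among them, Nfkbie, an NF-κB inhibitor, differed by −0.27 (interval −0.57 to 0.02) and Nfkb2, a further NF-κB subunit, by −0.23 (interval −0.43 to −0.04). In the PI3K and AKT list, 0 of 8 were called with TCDD and 8 lay above vehicle (10380 of 19938 over all genes), with a median of 0.10. At an unadjusted p under 0.05 there were 3 of the 8 (37.5%, against 8.69% of all genes). With Cl-BBQ, 7 of the 8 lay above vehicle, with a median of 0.06, and 0 reached that p. The largest difference of this list with TCDD was that of Inpp5d, the lipid phosphatase SHIP1, at 0.20 (interval 0.08 to 0.33; limma adjusted p = 0.171).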

How the data were processed

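The deposited values are log2 intensities that the authors made by robust multi-array average (RMA), per the submitters' processing notes; the log2 scale was read from the values (2.49 to 14.2), and the sources used here do not give the software, the probe library or the arrays that RMA ran over. Of 35556 probe sets, 21789 carried 1 symbol in the platform's probe table, 1621 several, and 12146 were not listed there; 19938 genes resulted.

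With limma 3.58.1 in R 4.3.3, a mean for each group was fitted to all 12 arrays, which leaves 9 residual degrees of freedom; tests were two-sided, with an intensity trend and no block. The number of arrays limits the precision. Differences are of log2 means, and intervals are at 95% for a single gene. The code was tested on simulated data; figures used matplotlib 3.10.9. The members and lists were chosen with earlier results of these data known. Genes given array by array were those called, the 3 of largest difference in each comparison, and those whose groups did not overlap at an unadjusted p under 0.01; further pathway genes were those called and the largest in each list without a call. Other genes named were picked with their values in view. The replicate numbers are not stated to mark a shared mouse or day. Deviations from group means of same-numbered arrays correlated over 0.1 in all 4 pairs of TCDD and Cl-BBQ (0.606, 0.113, 0.157 and 0.365), in 2 of 4 with TCDD and vehicle, and in 0 of 4 with Cl-BBQ and vehicle. Arrays of different number correlated too, at 0.419 for TCDD replicate 4 with Cl-BBQ replicate 2 and 0.505 for Cl-BBQ replicate 1 with vehicle replicate 3. Others ran down to −0.588, for TCDD replicate 4 with Cl-BBQ replicate 1. Alternatives were other normalizations, weights, priors, filters, probe set rules, a replicate block and arrays left out in turn.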

Additional observations from a re-analysis of the deposited data

Results flagged for a closer look

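Of 123 sets of 4 values examined (38 genes and 3 further called ones in 3 groups), 5 held a value far from the other 3 by Dixon's criterion, which chance meets in about 1 in 20 sets. Cl-BBQ replicate 1 was the low value in 3 of them: Rel at 10.78 (next 10.90), Sla at 12.48 (next 12.65) and Il2 at 6.79 (next 7.18). Ubash3a lay at 10.39 in TCDD replicate 1 (next 10.53), and Il2 at 7.68 in vehicle replicate 4 (next 7.44). None of these genes was called in the test of the difference between the ligands.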

How the results depend on the processing

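The count of called genes among the 38 was 0 with Cl-BBQ and 0 between the ligands under every alternative run. With TCDD it was 1, and 0 after median centring; it was 2 with array weights, with the dim filter (mean under 7.16 left out) and at an adjusted p under 0.1 (Rel and Icos), and 2 in a fit of the 2 groups alone and with the replicate block (Rel and Dgkz). It ran from 0 to 1 with each array left out in turn. Among the 101 further genes the count with TCDD was 3, and 5 after quantile normalization, 1 after median centring (Ppp3ca), 8 with array weights, 6 with the 2 groups alone, 7 with the replicate block, and 1 to 2 with arrays left out. With Cl-BBQ it was 1, and 0 without an intensity trend, after median centring and with the 2 groups alone, 2 with the replicate block (Il2 and Ppp3ca), and 0 to 1 with arrays left out. Between the ligands, the block, with all arrays or the ligand arrays alone, changed no call of these genes. Some ligand arrays of different number deviated together as well, so the number is not shown to mark pairs. Against vehicle the arrays share only a number. Among the recomputed differences of single genes, 9 changed sign, all uncalled: 5 of Malt1 with Cl-BBQ and 4 of Txk between the ligands. Malt1 (0.0126 in the main fit) went to −0.0021 after median centring. Txk (−0.0149 in the main fit) went to 0.0094 after median centring and 0.025 with array weights. With an array left out, fits of both signs ran from −0.040 to 0.058 for Malt1 and from −0.054 to 0.036 for Txk. The causes were not tested. Without the arrays numbered 1 of both ligand groups, the counts among the 38 were 1, 0 and 0.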
